A study of Gorilla gorilla gorilla with 14 samples.

Results

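Chromatin accessibility at the genes of 33 receptor subunits for glutamate and GABA was followed across 4 sorted cell types of gorilla cerebral organoids. A region belonged to the set when the deposited count table gave it a gorilla position and listed one of the 33 genes as its closest gene. This gave 357 of the 204249 regions used, and 30 of the 33 genes had at least 1. Of the 357, 31 were promoter regions, listed at most 1000 bp from the gene, and 326 were distal, listed farther away. The remaining genes, GRIN2C, GRIN3B and GABRD, had 12, 3 and 2 regions, all without a gorilla position and with counts of 0, so nothing can be said of them here. Some genes of the set lost part of their regions for the same reason: 12 of GRM5, 7 of GRIA1, 2 of GABRB1, 1 of GRIN2B and 1 of GRIA4. GRIK2, GABRA2 and GABRA6 had distal regions only, and GRM6 a promoter region only.

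The libraries came from organoids of the induced pluripotent stem cell line GC1 in week 8 of culture, so every value describes a single cell line. No treatment or gene edit is named in the labels, and the protocol for all libraries includes an overnight reversal of crosslinks after transposition, a step used for fixed cells. Cells were sorted by flow cytometry into 4 types: 3 libraries of apical radial glia (aRG), 2 of basal radial glia (bRG), 5 of basal intermediate progenitors (bIP) and 4 of neurons labelled as BCL11B+ (N). Radial glia are neural stem cells, intermediate progenitors are their neuron-forming daughters, and ATAC-seq reads come from DNA that a transposase can reach in open chromatin. Whether replicate libraries trace back to different cultures is not said in the labels, and the p-values therefore reflect the variation among these samples alone, some of which may be technical.

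Glutamate is the main excitatory transmitter of the brain and GABA the main inhibitory one. NMDA, AMPA and kainate receptors are ion channels opened by glutamate, and GABA-A receptors are chloride channels opened by GABA. Metabotropic glutamate receptors and GABA-B receptors signal through G proteins. In the developing cortex GABA can excite immature cells because their chloride content is high, and both transmitters act on progenitors and migrating neurons before synapses form.

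Library totals ranged from 12834983 to 26660427 counts. Numbers in the library names fall into 2 blocks, named here the first and the second series. N replicates 1 and 2, bIP replicates 1 to 3 and the first 2 aRG replicates made up the first, and both bRG libraries were in the second. The promoters of 8 radial glia markers summed to 359 to 384 CPM (counts scaled to the library total) in aRG, 295 to 321 in bRG, 143 to 227 in bIP and 103 to 135 in N. The promoters of 6 intermediate progenitor markers summed to 162 to 271 CPM in bIP and to between 66.4 and 112 elsewhere. The promoters of 7 neuron markers summed to 68.9 to 88.5 CPM in aRG and bRG, against 182 to 301 in bIP and 177 to 271 in N. BCL11B itself, the labelled neuron marker, did not set N apart: its promoter held mean CPM of 19.7 in aRG and 14.2 in bRG, and 23.6 in bIP and 20.3 in N, and the log2 difference between N and bIP was −0.22 ± 0.16 (SE; adjusted p = 0.276, edgeR's quasi-likelihood test).

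Set per kilobase of region, which is needed to compare genes, promoter accessibility spanned a wide range. GABBR1, the GABA-binding subunit of the GABA-B receptor, had the highest mean in each cell type, with 28.7 CPM per kb in aRG and 22.8 in bRG, and 26.1 in bIP and 26.3 in N. The metabotropic receptor genes GRM8 and GRM3 followed in aRG, with 22.4 and 21.1 CPM per kb. At the low end of aRG were GRM5 with 1.33, GRM4 with 1.40, GRM6 with 1.46 and GRIN1 with 1.76 CPM per kb. In N the same quantity was 3.62 for GRM5, 9.31 for GRM4, 5.58 for GRM6 and 14.4 for GRIN1, so the gap between the least and the most accessible receptor promoters was narrower there. The plot of promoter levels by gene shows this narrowing.

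**Figure D1:**
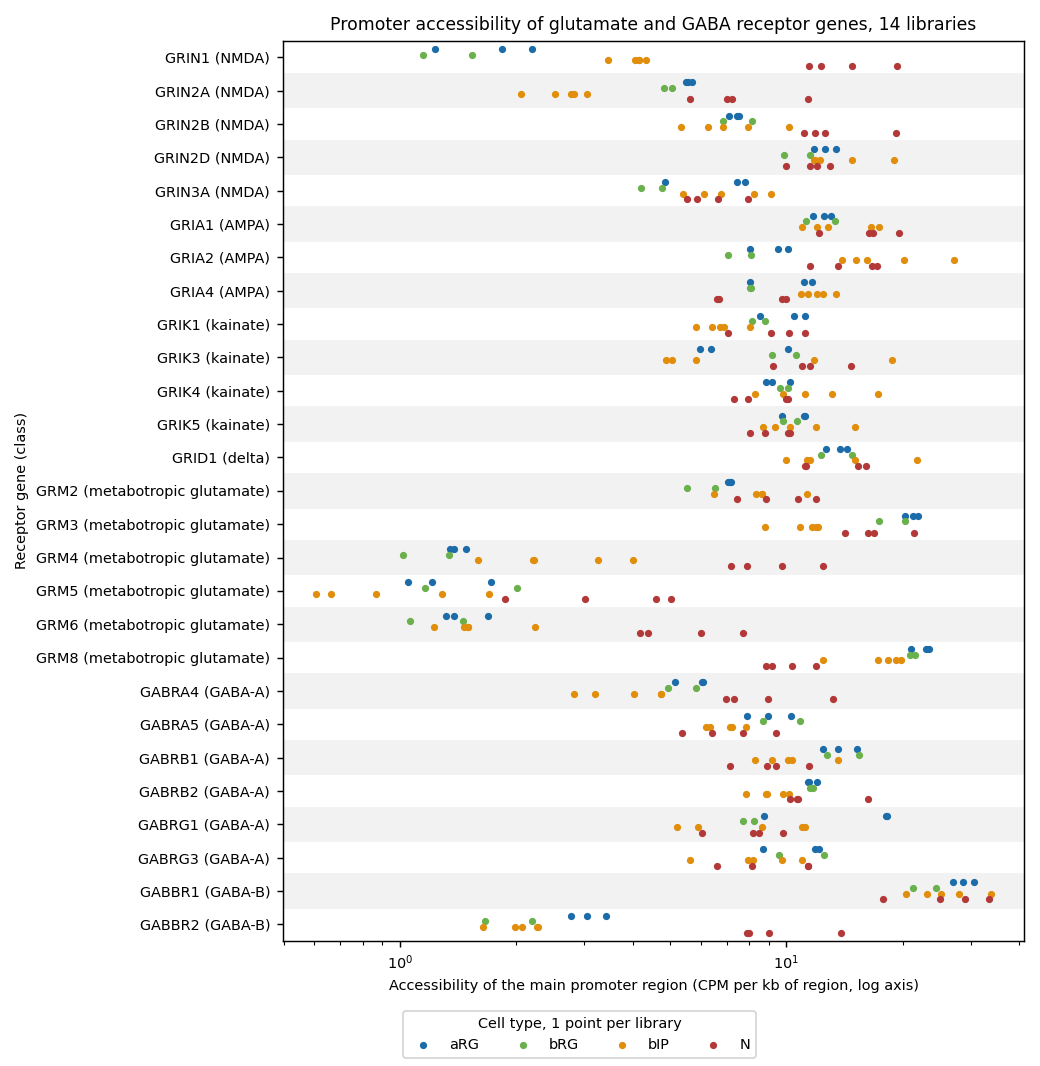
Accessibility of the main promoter region of 27 receptor genes in CPM per kb on a log axis, 1 point per library coloured by cell type. The N points of GRIN1, GRM4, GRM6 and GABBR2 lie to the right of all other libraries of those genes, while the means of GABBR1 lie between 22.8 and 28.7 in the 4 cell types.

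The main promoter region of a gene is the one with the highest mean CPM. The farthest promoter region counted was that of GRIA2 at 778 bp. Just outside the limit were a GABRB2 region at 1048 bp, with mean CPM of 2.50 in aRG and 2.55 in bRG, and 1.79 in bIP and 5.21 in N, and a GRIK4 region at 1104 bp, with 0.362, 0.346, 0.907 and 0.991. All positions below are gorGor6, counted from 1, and the listed distances matched a single point per gene in hg38, to within 2 bp, for 318 of the 321 regions that could be checked. Exon and intron positions were not used here.

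From bIP to N more receptor promoters rose than fell. Of the 31 promoter regions, 14 (45.2%) gained accessibility in N, compared with 14.3% of all promoter regions tested, and 3 (9.68%) were less accessible, against 22.9%. The median log2 difference was 0.27 for the receptor promoters and −0.13 for all promoters. The 14 include 3 neighbouring regions of GABBR2 and a minor region of GRIA1. Counted by gene, 11 of 27 main promoters rose, 3 fell and 13 did not pass the test. From aRG to bIP the direction was mixed, with 4 of 31 regions higher (11.5% of all promoters) and 8 lower (18.4% of all), and medians of −0.06 and −0.15. The lower count was 4 without aRG replicate 1 and 4 without bIP replicate 3, and it reached 12 without N replicate 3, while 4 were higher in each case. Over all promoters the lower count moved too, from 3775 of 20510 in the main model. It was 2952 of 20493, 3240 of 20501 and 7706 of 20472 in these fits, in the same order. Between aRG and N, 12 were higher in N (17.2% of all) and 3 lower (35.1% of all), and the medians were 0.35 and −0.26. Across the 4 cell types tested jointly, 21 of 31 passed (67.7%), against 52.2% of all promoters.

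These counts depend on how libraries were scaled and which were used. With offsets that depend on abundance (loess), the median of all promoters between bIP and N moved from −0.13 to 0.14. The receptor median then moved to 0.63, and the split became 24 higher and 1 lower, against 40.5% and 19.0% of all promoters. Between aRG and N the same scaling moved these medians to 0.49 and 0.10, with 21 higher and 1 lower, against 37.4% and 25.5% of all promoters. Without N replicate 4 the medians of receptor and of all promoters were 0.14 and −0.18 between bIP and N. Between aRG and N they were then 0.08 and −0.46. Within the first series 16 regions were higher and 1 lower in N than in bIP, against 17.4% and 16.0% of all promoters. Within the second 11 were higher and 4 lower, against 10.4% and 22.2% of all. The medians of receptor and of all promoters were 0.43 and 0.07 in the first and 0.09 and −0.39 in the second. From aRG to bIP, 4 regions were higher and 11 lower within the first series, against 12.1% and 27.15% of all promoters. The medians of receptor and of all promoters for that step were −0.21 and −0.25. Within the second series, which has a single aRG library, they were 0.24 and −0.002.

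**Figure D2:**
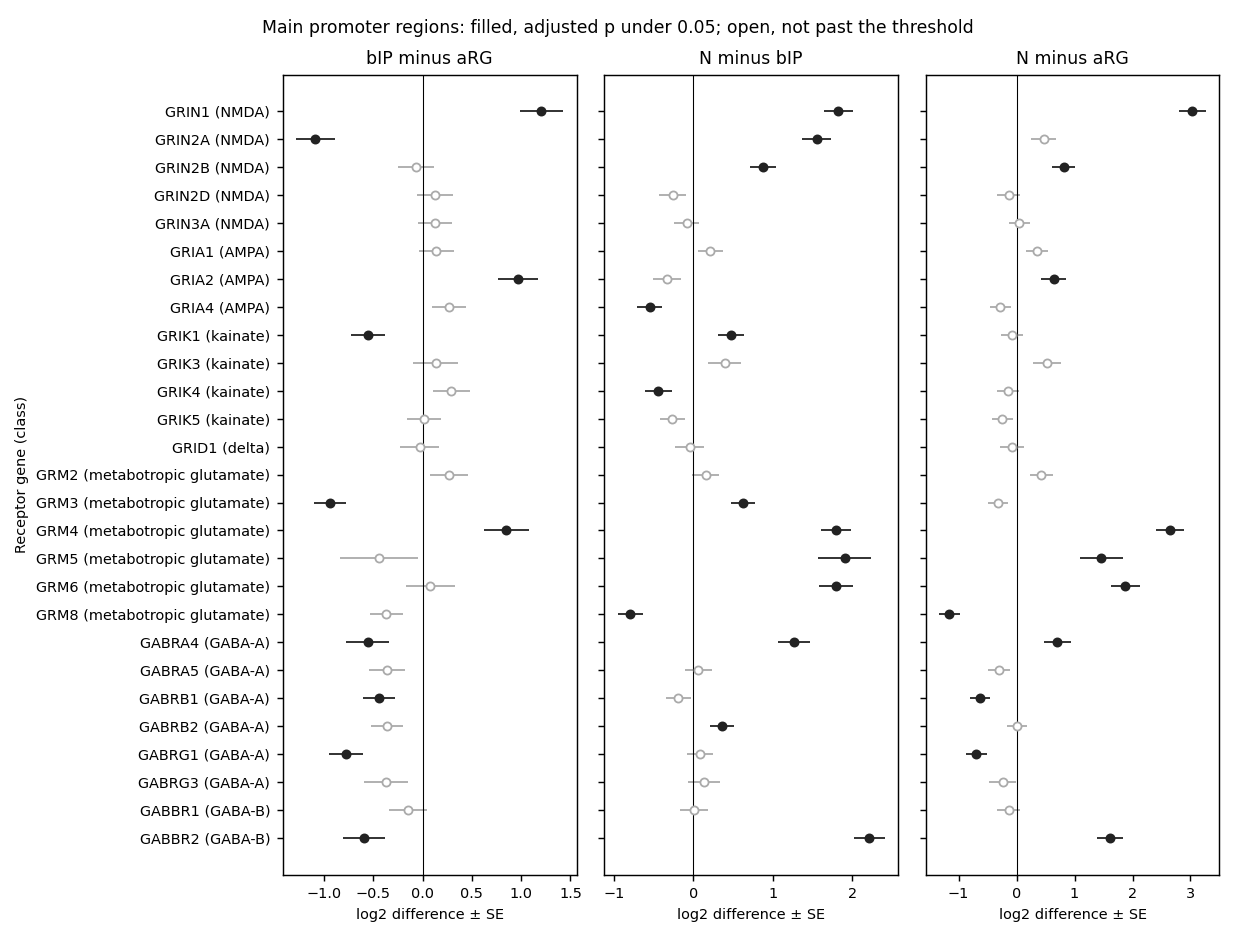
Log2 difference of each main promoter with its standard error for bIP minus aRG, N minus bIP and N minus aRG, filled where the adjusted p is under 0.05. GRIN1 is to the right in all 3 panels, at 1.21, 1.83 and 3.03, and GRIN2A changes side between the first panel and the second, from −1.08 to 1.55.

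NMDA receptor genes gave some of the steepest neuronal gains. GRIN1 encodes the subunit that every NMDA receptor contains, and its promoter (chr9:107048534-107050741) held 2.73, 4.05 and 4.85 CPM in the aRG libraries and 3.38 and 2.53 in bRG. The bIP libraries had 9.15, 9.57, 9.15, 7.64 and 8.93 CPM, and the N libraries 27.1, 32.6, 25.2 and 42.6. The 3 levels did not overlap: radial glia were lowest, bIP intermediate and N highest. The log2 difference was 1.21 ± 0.22 (SE) from aRG to bIP (adjusted p = 6.12e-05) and 1.83 ± 0.18 from bIP to N (adjusted p = 8.29e-09). Within the second series the step from aRG to bIP was 0.77 ± 0.38 (adjusted p = 0.154) and did not pass.

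GRIN2A encodes a regulatory subunit that becomes common after birth, and its promoter (chr16:8837975-8841068) dipped in bIP. It held 17.2, 17.6 and 17.1 CPM in aRG, 15.7 and 14.9 in bRG, 8.54, 8.73, 9.43, 7.78 and 6.37 in bIP, and 17.4, 21.7, 22.3 and 35.3 in N. All bIP libraries were below every library of the other groups. It fell by 1.08 ± 0.20 on the log2 scale from aRG to bIP (adjusted p = 5.31e-05) and rose by 1.55 ± 0.19 from bIP to N (adjusted p = 1.23e-07), while N and aRG overlapped and did not pass (0.47 ± 0.21, adjusted p = 0.0528). GRIN2B, the subunit typical of immature neurons, showed no such dip at chr12:13003503-13006064. Its level was 18.2, 19.3 and 19.1 CPM in aRG, 20.9 and 17.5 in bRG, 16.1, 17.6, 13.7, 26.0 and 20.4 in bIP, and 28.4, 32.2, 30.3 and 49.2 in N. The N libraries were above all others, and the gain over bIP was 0.87 ± 0.17 (adjusted p = 7.30e-05). GRIN2D, another regulatory subunit, and GRIN3A, a subunit that binds glycine, passed in no comparison of the main model. Their group means ranged from 10.9 to 14.3 CPM and from 6.99 to 11.1 CPM, with overlapping libraries of bIP and N. With loess offsets GRIN3A was higher in N than in bIP (0.35, adjusted p = 0.0305).

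Among the AMPA receptor genes, GRIA2 gained accessibility a step earlier. GRIA2 encodes the subunit whose edited form keeps calcium out of the channel. Its main promoter region (chr4:155038463-155040138, listed at 778 bp) held 16.0, 16.9 and 13.5 CPM in aRG, 13.5 and 11.8 in bRG, 27.1, 25.4, 23.3, 33.8 and 45.5 in bIP, and 22.8, 27.8, 19.3 and 28.7 in N. All bIP and N libraries were above all radial glia libraries, and bIP and N overlapped. The rise from aRG to bIP was 0.97 ± 0.21 (adjusted p = 0.000348), and from bIP to N the difference was −0.33 ± 0.18 (adjusted p = 0.125). The neighbouring region at the listed gene position (chr4:155036742-155038264) gave 0.78 ± 0.18 for the first step (adjusted p = 0.00103) and 0.27 ± 0.16 for the other (adjusted p = 0.156). The main region's difference between aRG and N, 0.64 ± 0.21 (adjusted p = 0.00994), did not pass without N replicate 4 (0.43, adjusted p = 0.109), aRG replicate 2 (0.55, adjusted p = 0.0702), aRG replicate 3 (0.44, adjusted p = 0.126) or bIP replicate 4 (0.46, adjusted p = 0.0796), nor within the second series (0.82, adjusted p = 0.0545).

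GRIA4, an AMPA subunit prominent early in development, had its highest promoter mean in bIP (chr11:88670338-88673265), with 35.2 ± 2.81 CPM (SD, n = 5) against 24.2 ± 5.40 in N (n = 4). It fell by 0.55 ± 0.16 from bIP to N (adjusted p = 0.00439), but within the first series by 0.20 ± 0.16 (adjusted p = 0.308), and with loess offsets by 0.20 ± 0.10 (adjusted p = 0.0875). GRIA1, a subunit that adds AMPA receptors at active synapses, did not pass at its main promoter (chr5:132969871-132972330), which held 30.6 ± 1.58 CPM in aRG and 39.8 ± 7.58 in N. A small region listed at 697 bp (chr5:132969434-132969750) held 0.863 ± 0.118 CPM in bIP and 1.80 ± 0.305 in N, without overlap, a rise of 1.05 ± 0.25 (adjusted p = 0.000853).

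Of the 4 kainate receptor promoters, GRIK1 and GRIK4 passed between bIP and N, in opposite directions. GRIK5 and GRIK4 encode subunits that need a partner of the other kainate subgroup, and GRIK1 and GRIK3 encode such partners. GRIK5 (chr19:34556239-34557909) stayed between means of 15.5 CPM in N and 18.5 in bIP and passed in no comparison. GRIK1 (chr21:16047883-16049834) fell by 0.55 ± 0.17 from aRG to bIP (adjusted p = 0.011), from a mean of 19.6 CPM to 13.2, and rose by 0.47 ± 0.16 from bIP to N (adjusted p = 0.015), to 18.3. The rise did not pass without N replicate 4 (0.31, adjusted p = 0.14) or bIP replicate 4 (0.43, adjusted p = 0.057), and neither step passed within the second series (−0.36, adjusted p = 0.503, and 0.45, adjusted p = 0.188). GRIK4 (chr11:103670070-103672196) fell by 0.44 ± 0.17 from bIP to N (adjusted p = 0.0323), and this did not pass in 12 alternatives, with values from −0.50 to −0.07.

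At GRIK3 (chr1:32844587-32846047) the bIP and aRG libraries were separated by library series. Its bIP libraries held 8.54, 7.37 and 7.14 CPM in the first series and 17.2 and 27.4 in the second, and its aRG libraries 9.32 and 8.73 in the first and 14.7 in the second. The bRG libraries had 15.5 and 13.4 CPM and the N libraries 13.5, 16.8, 16.0 and 21.4. Groups overlapped in all 6 comparisons, and the difference of N from bRG, 0.70 ± 0.29 (adjusted p = 0.0422), was the comparison that passed. With a replicate block it was −0.070 (adjusted p = 0.819), and bIP then passed as lower than bRG (−0.88, adjusted p = 0.00694). It was 0.37 ± 0.28 within the second series (adjusted p = 0.282). It also did not pass when any 1 of 10 libraries was left out, at adjusted p values from 0.0509 without bIP replicate 3 to 0.216 without bRG replicate 2. GRID1, a delta subunit, is grouped with the glutamate receptors by sequence and is not opened by glutamate. Its promoter (chr10:81754136-81756551) passed in no comparison of the main model, with means between 32.4 and 33.5 CPM in the 4 cell types. With loess offsets it was higher in N than in aRG (0.40, adjusted p = 0.00143) and than in bIP (0.27, adjusted p = 0.00966).

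Metabotropic glutamate receptor promoters went both ways. GRM4, GRM6 and GRM8 encode receptors of group III, which lower cyclic AMP. GRM4 (chr6:34229600-34232086) held 3.36, 3.43 and 3.68 CPM in aRG, 2.53 and 3.32 in bRG, 5.52, 5.50, 3.95, 8.08 and 9.99 in bIP, and 17.9, 24.2, 19.7 and 30.9 in N. The groups rose in steps without overlap from radial glia to bIP and from bIP to N, by 0.85 ± 0.23 from aRG (adjusted p = 0.00334) and then by 1.79 ± 0.19 (adjusted p = 1.84e-08). GRM6, best known from retinal bipolar cells, was low outside N (chr5:158347073-158349014), with 3.28, 2.68 and 2.55 CPM in aRG, 2.83 and 2.06 in bRG, 2.38, 2.85, 2.91, 2.92 and 4.35 in bIP, and 8.53, 11.7, 8.11 and 15.0 in N. The N libraries were above all others, by 1.80 ± 0.21 over bIP (adjusted p = 9.21e-08). GRM8 moved the opposite way (chr7:119545439-119546957), with 31.8, 35.5 and 34.9 CPM in aRG, 31.7 and 32.6 in bRG, 27.8, 26.3, 18.9, 30.1 and 29.2 in bIP, and 15.7, 18.1, 13.9 and 13.5 in N. The N libraries were below all others, and the fall from bIP was 0.79 ± 0.16 (adjusted p = 0.000165).

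GRM3 and GRM2 encode the group II receptors, which also lower cyclic AMP, and GRM3 is known from glia as well as neurons. The GRM3 promoter (chr7:85351320-85353550) held 48.7, 47.3 and 45.1 CPM in aRG, 45.3 and 38.6 in bRG, 26.0, 24.3, 19.7, 26.9 and 26.6 in bIP, and 36.3, 37.5, 31.6 and 47.7 in N. The bIP libraries were below all others, as with GRIN2A. It fell by 0.94 ± 0.16 from aRG to bIP (adjusted p = 3.40e-05) and rose by 0.62 ± 0.15 from bIP to N (adjusted p = 0.00116). Within the second series the 2 steps were −0.75 ± 0.32 (adjusted p = 0.0942) and 0.56 ± 0.27 (adjusted p = 0.0917). GRM2 (chr3:51631984-51633580) had means from 9.63 CPM in bRG to 15.5 in N. It passed against bRG alone, in N at 0.76 ± 0.24 (adjusted p = 0.0089) and in bIP at 0.61 ± 0.24 (adjusted p = 0.0466). The first did not pass without N replicate 4 (0.50, adjusted p = 0.122) or bRG replicate 2 (0.65, adjusted p = 0.108), and the second did not pass in 17 alternatives.

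GRM5, a group I receptor that raises intracellular calcium and is known in radial glia and neurons, had a short promoter region of low accessibility (chr11:70282712-70283365). It held 0.790, 0.686 and 1.13 CPM in aRG, 0.758 and 1.31 in bRG, 0.567, 0.841, 1.11, 0.398 and 0.435 in bIP, and 3.00, 1.22, 1.97 and 3.28 in N. For scale, 3 counts were worth 0.113 to 0.234 CPM, depending on the library, and this floor covers counting error only. The rise from bIP to N was 1.90 ± 0.33 (adjusted p = 2.67e-05), with no overlap. Another 12 regions listed for GRM5 had no gorilla position and no counts. Whether they include promoter regions was not examined, so the low values describe this region and may not describe the gene.

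**Figure D3:**
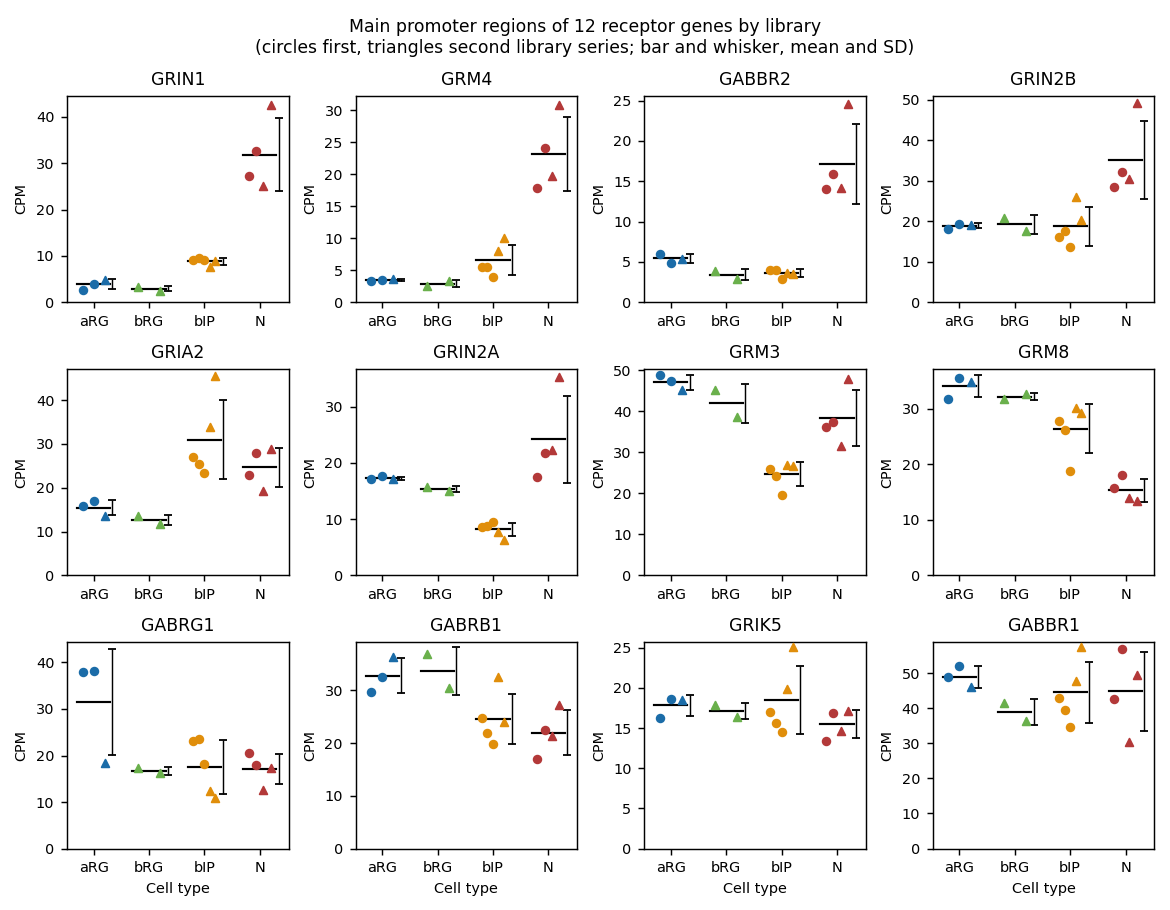
CPM of the main promoter of 12 receptor genes in each library, with the mean and SD of each cell type, circles for the first library series and triangles for the second. GRIN1, GRM4 and GABBR2 are highest in all 4 N libraries, GRIN2A and GRM3 are lowest in bIP, GRM8 is lowest in N, and GABRG1 separates the aRG libraries by series.

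Of 6 GABA-A receptor promoter regions, 2 (33.3%) rose from bIP to N, compared with 14.3% of all promoters, and 0 fell, compared with 22.9%, with a class median of 0.11. With loess offsets GABRA5 (0.45, adjusted p = 0.00176), GABRG1 (0.46, adjusted p = 0.00899) and GABRG3 (0.55, adjusted p = 0.0051) passed as higher too, and these 3 also passed with the filter of 10 CPM. GABRA4 encodes an alpha subunit of receptors outside synapses. Its promoter (chr4:46907670-46909470) held 10.9, 10.9 and 9.26 CPM in aRG, 10.5 and 8.89 in bRG, 8.54, 8.54, 7.28, 5.74 and 5.07 in bIP, and 13.2, 16.2, 12.6 and 23.8 in N. The N libraries were highest and the bIP libraries lowest, and the rise between them was 1.26 ± 0.20 (adjusted p = 7.88e-06). The fall from aRG to bIP, 0.56 ± 0.22 (adjusted p = 0.0367), did not pass without aRG replicate 1, aRG replicate 3, bIP replicate 3 or bIP replicate 5, with adjusted p values from 0.0546 to 0.101. The difference of N from aRG, 0.71 ± 0.23 (adjusted p = 0.009), was 0.26 (adjusted p = 0.236) without N replicate 4, and it also did not pass without aRG replicate 2 (adjusted p = 0.094) or bIP replicate 4 (adjusted p = 0.0586).

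GABRB2, a beta subunit, was the other promoter that passed (chr5:141024546-141027176). Its N libraries held 28.2, 26.8, 28.1 and 42.7 CPM and its bIP libraries 25.7, 23.5, 20.7, 26.7 and 23.3. The groups just missed each other, and the difference of 0.36 ± 0.15 (adjusted p = 0.0457) did not pass in 18 alternatives, among them without N replicate 4 (0.19, adjusted p = 0.357). GABRB1, also a beta subunit, was lower in N than in aRG by 0.63 ± 0.18 (chr4:46946189-46948574, adjusted p = 0.00275), with means of 22.0 and 32.8 CPM. With loess offsets this difference was −0.16 (adjusted p = 0.246), and within the second series −0.58 (adjusted p = 0.141). Its fall from aRG to bIP, 0.44 ± 0.17 (adjusted p = 0.0322), did not pass when any 1 of 5 libraries was left out (aRG replicate 1 or 3, bIP replicate 2, 3 or 5), at adjusted p values from 0.0581 to 0.0733. GABRA5, an alpha subunit, and GABRG3, a gamma subunit, did not pass from aRG to bIP or from bIP to N in the main model. From aRG to bIP they passed as lower in 8 and 4 of 25 alternatives.

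GABRG1, a gamma subunit, separated the aRG libraries by series (chr4:46042203-46044299). They held 37.9 and 38.2 CPM in the first series and 18.4 in the second, against 17.3 and 16.1 in bRG, 23.0, 23.5, 18.2, 12.4 and 10.9 in bIP, and 20.6, 17.9, 12.7 and 17.2 in N. The aRG libraries of the first series were above all others, and the aRG library of the second lay among the bRG, bIP and N libraries. The model with a series term gave a fall of 0.78 ± 0.17 from aRG to bIP (adjusted p = 0.000546) and of 0.69 ± 0.19 from aRG to N (adjusted p = 0.00206). Within the second series these were −0.66 ± 0.32 (adjusted p = 0.147) and −0.30 ± 0.32 (adjusted p = 0.46), and with loess offsets the difference of N from aRG was −0.23 (adjusted p = 0.204).

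The 2 GABA-B receptor genes differed from each other. The receptor works as a pair in which GABBR1 binds GABA and GABBR2 couples to the G protein. GABBR1 (chr6:29682596-29684301) passed in no comparison of the main model. Its means were 49.0 ± 3.06 CPM in aRG and 38.9 ± 3.68 in bRG, and 44.5 ± 8.73 in bIP and 44.8 ± 11.3 in N. With loess offsets it was higher in N than in aRG (0.34, adjusted p = 0.000136). GABBR2 (chr9:69706299-69708071) held 6.04, 4.93 and 5.39 CPM in aRG, 3.89 and 2.95 in bRG, 4.05, 4.01, 2.91, 3.67 and 3.52 in bIP, and 14, 16.0, 14.2 and 24.5 in N. The N libraries were above all others, by 2.21 ± 0.19 over bIP (adjusted p = 9.09e-10).

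The next GABBR2 region, at the listed gene position (chr9:69708219-69709302), was barely accessible outside N. It held 0.790, 1.18 and 1.42 CPM in aRG, 0.960 and 0.749 in bRG, 0.870, 0.711, 1.18, 0.928 and 1.93 in bIP, and 8.96, 12, 8.44 and 15.1 in N. The rise from bIP was 3.29 ± 0.25 (adjusted p = 1.05e-10), the largest of the 31 promoter regions, again with no overlap. The fall of the main GABBR2 region from aRG to bIP, 0.59 ± 0.21 (adjusted p = 0.0244), did not pass without aRG replicate 1 (−0.48, adjusted p = 0.143) or bIP replicate 3 (−0.53, adjusted p = 0.0559), nor within the second series (−0.58, adjusted p = 0.315).

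More distal regions also rose than fell from bIP to N. Of 326 distal regions, 323 could be tested, with a median listed distance of 43446 bp. From bIP to N, 140 (43.3%) were more accessible in N, against 30.6% of all distal regions, and 55 (17.0%) less accessible, against 26.7%. The medians of the log2 difference were 0.38 for the receptor genes and 0.03 for all distal regions. From aRG to bIP the receptor regions were close to the background, with 88 higher (27.2%, all 25.5%), 62 lower (19.2%, all 21.1%) and medians of 0.16 and 0.08. Between aRG and N, 159 were higher in N (49.2%, all 39.5%) and 69 lower (21.4%, all 28.4%), and the medians were 0.80 and 0.30. The joint test across the 4 cell types passed for 262 regions (81.1%), against 77.2% of all. The highest group mean lay in N for 174 of the 326 regions, in bIP for 58, in aRG for 51 and in bRG for 43. That count was not made over all distal regions, which also leaned to N against aRG (39.5% higher, 28.4% lower).

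The classes differed in their counts from bIP to N, read against 30.6% of all distal regions higher and 26.7% lower. Of 87 GABA-A regions, 49 rose (56.3%) and 5 fell (5.75%), with a class median of 0.79. AMPA regions rose in 31 of 66 (47.0%) and fell in 10 (15.2%), and GABA-B regions rose in 6 of 7. The other ion channel and metabotropic classes were nearer to the background. NMDA regions rose in 13 of 36 (36.1%) and fell in 7 (19.4%), kainate regions rose in 25 of 68 (36.8%) and fell in 14 (20.6%) with a median of 0.05, and metabotropic regions rose in 16 of 51 (31.4%) and fell in 13 (25.5%). The delta gene GRID1 had 0 of 8 higher and 6 lower. The GABA-A count is carried by GABRB1, with 18 of 29 higher and 0 lower, GABRA4, with 8 of 8, and GABRA5 and GABRG3, each with 5 of 8. GABRB2 was split, 7 higher and 5 lower of 27. In the AMPA class GRIA1 supplied 26 of the 31 rises. Regions around the same gene share their neighbourhood and are not independent. In bulk samples a smaller share of cells with an open region and less access per cell cannot be told apart.

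**Figure D4:**
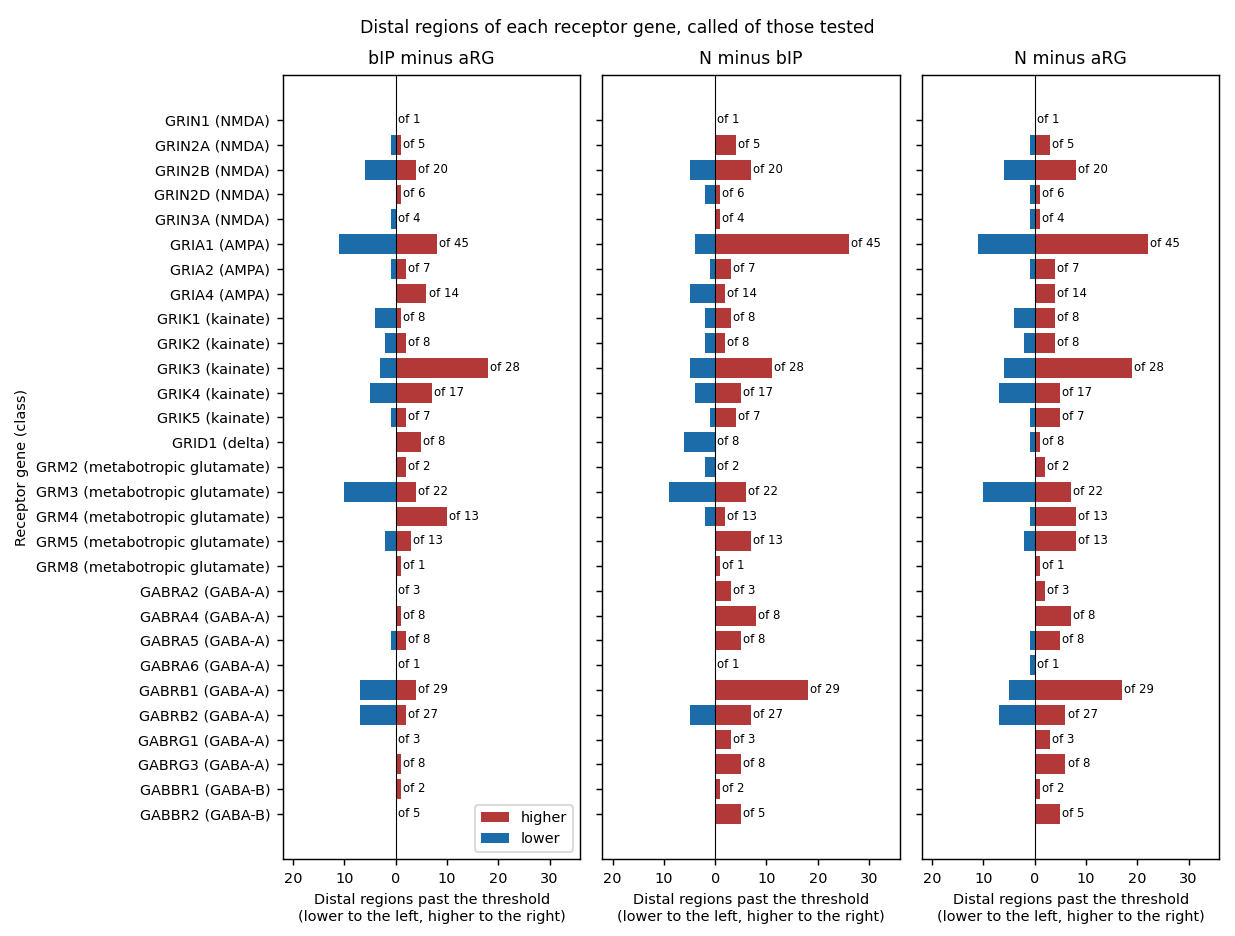
Number of distal regions of each receptor gene past the threshold, lower to the left and higher to the right, with the number tested, for 3 comparisons. In the N minus bIP panel GABRB1 and GABRA4 have bars to the right alone, at 18 of 29 and 8 of 8, and GRID1 has a bar to the left alone, at 6 of 8.

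From aRG to bIP the genes differed in their counts, read against 25.5% of all distal regions higher and 21.1% lower. GRIK3 had 18 of 28 regions higher and 3 lower, GRM4 had 10 of 13 higher and 0 lower, and GRIA4 had 6 of 14 higher and 0 lower. GRID1 had 5 of 8 higher and 0 lower. GRM3 went the opposite way with 4 higher and 10 lower of 22, and GABRB1 and GABRB2 each had 7 lower, of 29 and 27, with 4 and 2 higher. GABA-A regions as a class had 10 higher and 15 lower of 87, both below the shares of all distal regions.

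The distal regions with the smallest p-values fall into 3 kinds. Those open in N and nearly closed before include a GABRB1 region at 135205 bp (chr4:47070176-47071668). It held 1.22, 1.31 and 1.76 CPM in aRG, 0.606 and 0.889 in bRG, 2.80, 2.52, 2.56, 3.31 and 3.04 in bIP, and 15.6, 13.7, 14.7 and 27.7 in N. N was separate from all others, by 2.59 ± 0.19 over bIP (adjusted p = 1.10e-10). This GABRB1 region also passed as higher in bIP than in aRG. Within the second series, with a single aRG library, that difference was 0.85 ± 0.45. A GABRA4 region at 25482 bp (chr4:46882212-46882960) held 0.398 to 0.869 CPM in bIP and 5.53, 4.75, 8.16 and 15.4 in N, a rise of 3.57 ± 0.30 (adjusted p = 4.95e-10). A GRIN2B region at 86936 bp (chr12:12916321-12916934) held 0.388 to 0.869 CPM in bIP and 3.66, 3.60, 6.43 and 14.1 in N, a rise of 3.36 ± 0.28 (adjusted p = 5.02e-10). Neither passed between aRG and bIP, and in both N replicate 4 was the highest library.

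Further regions of this kind belonged to GRIK5, GRIA1 and GABBR2. A GRIK5 region at 34041 bp (chr19:34521164-34522530) rose from 1.05 ± 0.342 CPM in bIP to 10.1 ± 3.93 in N (3.23 ± 0.26, adjusted p = 2.65e-10). The GRIA1 region at 350561 bp (chr5:132633802-132634695) rose from 1.03 ± 0.412 to 6.14 ± 1.33 CPM (2.66 ± 0.25, adjusted p = 3.02e-09). The GABBR2 region at 17239 bp (chr9:69725932-69727010) rose from 0.601 ± 0.142 to 6.04 ± 2.59 CPM (3.27 ± 0.27, adjusted p = 5.16e-10). The GRIA1 region also passed as higher in bIP than in aRG. That difference did not pass without aRG replicate 1 (0.95, adjusted p = 0.0838) or aRG replicate 2 (0.85, adjusted p = 0.099). Within the second series, with a single aRG library, it was 0.21 ± 0.61. In none of the 3 regions did N overlap bIP. The GRIK5 promoter, by contrast, passed in no comparison. GRIK5 had a second such region at 25906 bp (chr19:34529557-34530665), which already rose in bIP: means were 1.57 CPM in aRG and 0.825 in bRG, and 7.30 in bIP and 24.7 in N, with steps of 2.17 ± 0.27 and 1.79 ± 0.21 (adjusted p = 3.84e-07 and 6.35e-08). A GRIK4 region at 4396 bp (chr11:103675154-103676425) rose in a like way, through means of 1.83, 1.71, 5.57 and 16.9 CPM, while the GRIK4 promoter had its highest mean in bIP.

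Regions that peaked in bIP form the next kind. A GRID1 region at 31383 bp (chr10:81722540-81724262) held 2.49, 2.56 and 6.81 CPM in aRG, 5.51 and 6.23 in bRG, 31.7, 29.2, 28.2, 38.3 and 38.9 in bIP, and 12.2, 12, 12.2 and 21.0 in N. The bIP libraries were above all N libraries, and these above all radial glia libraries. It rose by 3.12 ± 0.23 from aRG to bIP (adjusted p = 5.88e-10) and fell by 1.28 ± 0.19 from bIP to N (adjusted p = 2.13e-06), although the GRID1 promoter held about the same mean in all 4 cell types. A GRM3 region at 7003 bp (chr7:85345195-85346008) held 14.7, 14.1, 10.3, 13.5 and 17.0 CPM in bIP and 1.83, 1.36, 2.40 and 2.16 in N, with 3.42 to 4.26 in radial glia. It fell by 2.86 ± 0.20 from bIP to N (adjusted p = 4.38e-11), the opposite of the GRM3 promoter in both steps.

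Other regions highest in bIP lay 1586 bp from GRIN2D (chr19:39900327-39901121, means of 6.29, 3.66, 11.1 and 3.28 CPM from aRG to N), 62003 bp from GRIK3 (chr1:32783146-32784042, 5.42, 7.99, 12.5 and 2.99) and 2935 bp from GRM2 (chr3:51628542-51629582, 0.889, 0.831, 6.45 and 3.07). The first fell by 1.72 ± 0.18 from bIP to N (adjusted p = 2.03e-08) and the second by 2.14 ± 0.19 (adjusted p = 1.43e-09). At GRIK2, a kainate subunit with no promoter region here, a region at 114304 bp (chr6:99663114-99664636) rose from 1.28 ± 0.463 CPM in aRG to 12 ± 2.40 in bIP (3.21 ± 0.26, adjusted p = 1.06e-09). N held 9.20 ± 1.66 CPM there and did not pass against bIP (−0.37, adjusted p = 0.107). A region 2642 bp from GRM8 (chr7:119548645-119549338) rose through means of 0.913, 0.640, 5.80 and 10.0 CPM, while the GRM8 promoter fell.

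The third kind was most accessible in radial glia and less accessible afterwards. The leading case lay 63419 bp from GRM3 (chr7:85287281-85288907), with 71.9, 73.0 and 44.0 CPM in aRG, 44.6 and 37.4 in bRG, 14.7, 15.2, 6.58, 10.8 and 4.92 in bIP, and 4.87, 6.11, 3.84 and 2.49 in N. Radial glia were above all other libraries, and bIP and N overlapped. It fell by 2.53 ± 0.23 from aRG to bIP (adjusted p = 3.27e-09) and by 1.23 ± 0.24 from bIP to N (adjusted p = 8.40e-05). A GRIN2B region at 102644 bp (chr12:12899690-12900975) fell through means of 24.6, 19.5, 5.58 and 2.01 CPM, by 2.08 ± 0.25 from aRG to bIP (adjusted p = 1.79e-07), and so against the GRIN2B promoter and the GRIN2B region at 86936 bp. Regions of GABRA5 at 33584 bp (chr15:3435120-3436277; 17.9, 13.7, 2.61 and 1.85 CPM), GRIK3 at 48270 bp (chr1:32889939-32891671; 16.4, 14.3, 4.91 and 3.92) and GABRB2 at 98089 bp (chr5:140927659-140928702; 8.15, 6.77, 1.29 and 1.25) also fell from aRG to bIP, by 2.74 ± 0.26, 1.78 ± 0.17 and 2.63 ± 0.28. In these 3, bIP did not overlap aRG or bRG, and N did not pass against bIP.

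**Figure D5:**
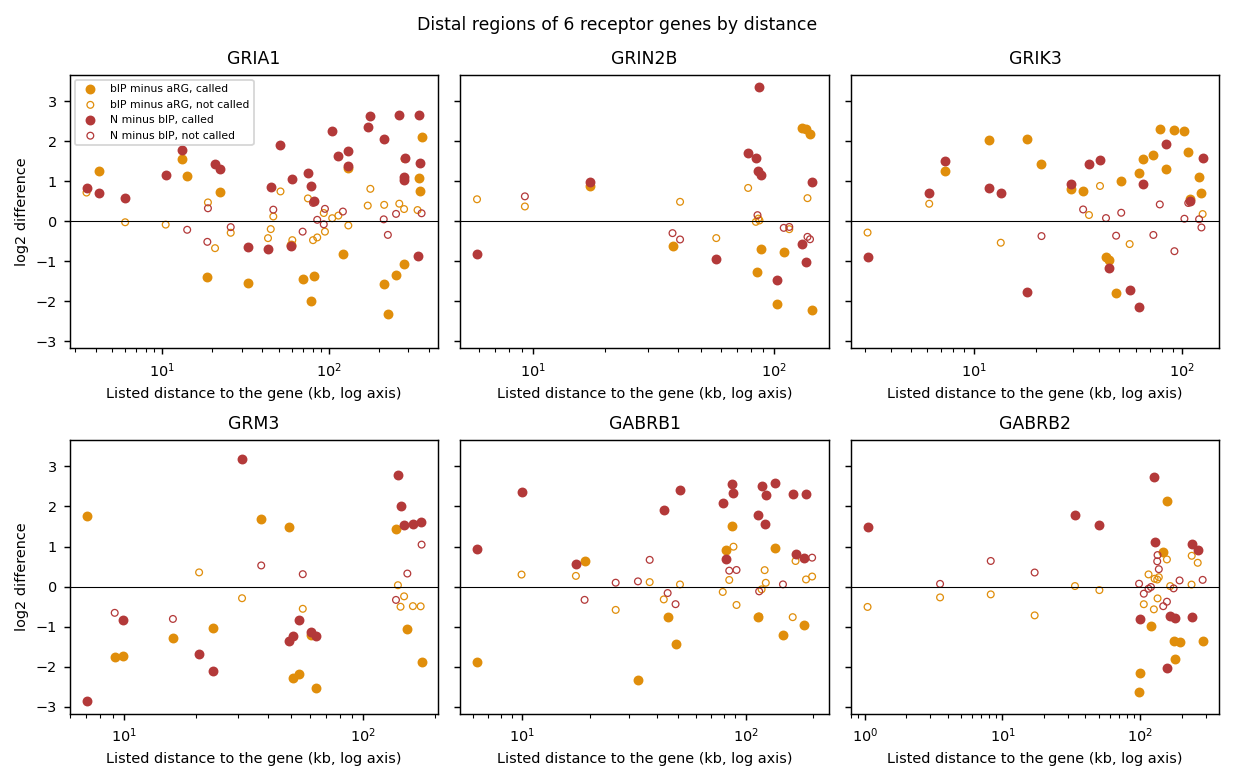
Log2 difference of the distal regions of 6 receptor genes against the listed distance to the gene on a log axis, orange for bIP minus aRG and red for N minus bIP, filled where past the threshold. Red filled points lie above 0 at all distances for GABRB1, while GRM3 has them below 0 up to about 60 kb and above 0 beyond 100 kb, except for 1 above 0 near 30 kb.

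The deposited peak sets, 1 per cell type, list where the authors called open chromatin in that cell type. Peaks of aRG touched 24 of the 31 promoter regions, those of bRG 25, those of bIP 27 and those of N 28. Of all promoter regions 72.2%, 72.6%, 71.7% and 69.8% were touched. GRIN1 was touched in every cell type except aRG, GRM4 and GRM6 in bIP and N, and the GABBR2 region at the listed gene position in N alone. GRM5 and the small regions of GRIA1 and GABBR2 were touched in none. Among distal regions the numbers were 99 of 326 for aRG, 84 for bRG, 88 for bIP and 102 for N, and 146 were touched by no set. In all distal regions 32.4%, 31.8%, 31.7% and 33.2% were touched. The distal regions named above for GABRA4, GRIA1, GABBR2 and GRIK4, the GRIK5 region at 34041 bp and the GRIN2B region at 86936 bp were touched by N peaks alone, and those of GABRA5, GABRB2, GRIK3 at 48270 bp and GRIN2B at 102644 bp by aRG and bRG peaks alone.

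No region of the set passed between aRG and bRG with edgeR (0.0% of all promoter regions and 0.0% of all distal regions) or with DESeq2. At an unadjusted p under 0.05 were 1 of 31 promoter regions, that of GABBR2 (−0.77 ± 0.30), and 16 of 323 distal regions, and DESeq2 gave 1 and 14. These comparisons rest on 2 bRG libraries, both of the second series, and the absence of a call does not show that the radial glia are alike. Against bRG, bIP had 5 promoter regions higher (10.9% of all) and 3 lower (10.1% of all), and 78 distal regions higher (21.5%) and 51 lower (16.7%). Without bRG replicate 1 the 3 lower promoters, GRIN2A, GRM3 and GABRA5, did not pass (adjusted p = 0.062, 0.121 and 0.319). Against bRG, N had 14 promoter regions higher (16.6% of all) and 2 lower (21.8%), and 148 distal regions higher (34.1%) and 63 lower (26.2%). Comparisons against aRG, bRG, bIP and N share libraries, so they are not independent of each other.

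Other genes of the same signalling system were taken from lists that are not part of the set. Of 14 genes for making and moving glutamate and GABA, 11 had a promoter region. From bIP to N 4 of these were higher and 4 lower, against 14.3% and 22.9% of all promoters. The neuronal glutamate transporter SLC1A1 (1.38 ± 0.17, adjusted p = 1.28e-07) and the vesicular GABA transporter SLC32A1 (0.77, adjusted p = 0.001) rose. The glial glutamate transporter SLC1A3 (−0.71 ± 0.16, adjusted p = 0.000407) and glutamine synthetase GLUL (−0.63 ± 0.16, adjusted p = 0.00157) fell. Calls in both directions included transporters and enzymes of neurons and of glia: SLC6A11, a GABA transporter of glia, rose (0.46, adjusted p = 0.0312), as did the vesicular glutamate transporter SLC17A8 (0.85, adjusted p = 0.00117), and GAD2, which makes GABA in neurons, fell (−0.50, adjusted p = 0.0215), as did ABAT, which breaks GABA down (−0.45, adjusted p = 0.0334). SLC17A8 held 5.01 CPM in aRG, 2.64 in bIP and 4.59 in N. Its rise followed a fall of 0.93 from aRG to bIP (adjusted p = 0.00107), and N did not pass against aRG (−0.08, adjusted p = 0.768). Of 32 auxiliary and scaffold genes, 20 had a promoter region, with 6 higher and 4 lower, so the lower count was near the share of all promoters. CACNG3, an AMPA receptor auxiliary subunit, held 7.93 CPM in aRG, 2.82 in bIP and 8.82 in N. It fell by 1.48 from aRG to bIP (adjusted p = 2.29e-06) and rose by 1.70 from bIP to N (adjusted p = 8.53e-08). N did not pass against aRG there (0.22, adjusted p = 0.375). GRIP1, which anchors AMPA receptors, fell by 0.52 from bIP to N (adjusted p = 0.00488) after a rise of 1.09 from aRG to bIP.

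The 2 chloride transporters that set how GABA-A receptors act differed in response. SLC12A5 exports chloride, and its promoter held 2.25 ± 0.623 CPM in aRG and 1.94 ± 0.102 in bRG, and 0.989 ± 0.209 in bIP and 5.64 ± 1.89 in N. It fell by 1.18 ± 0.26 from aRG to bIP (adjusted p = 0.000511) and rose by 2.41 ± 0.23 from bIP to N (adjusted p = 3.49e-09). SLC12A2 imports chloride, and with means from 51.2 to 62.8 CPM it did not pass in these steps (−0.20 ± 0.19 and −0.12 ± 0.17).

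Promoters of cells outside the sorted types moved with the groups too. Those of 10 GABAergic lineage genes summed to 185 to 197 CPM in aRG and 171 to 183 in bRG, and 151 to 228 in bIP and 114 to 152 in N. Of the 10, 2 were higher and 6 lower in N than in bIP, against 14.3% and 22.9% of all promoters. Those of 8 astrocyte and oligodendrocyte genes summed to 95.4 to 102 CPM in aRG and 79.7 to 87.5 in bRG, and 53.6 to 76.9 in bIP and 32.7 to 51.0 in N, and AQP4, which marks astrocytes, was at 0.411 CPM in N. Those of 5 choroid plexus and mesenchyme genes summed to 87.7 to 97.7 CPM in aRG and 89.4 to 91.7 in bRG, and 44.1 to 72.3 in bIP and 38.8 to 50.2 in N. The lowest library of each of these 3 lists was in N, and their part in the receptor results was not tested.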

How the data were processed

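The data are ATAC-seq libraries from 14 sorted samples. The deposited count table holds whole-number counts of reads per region and library. The deposited peak sets, 1 per cell type and not per library, give −log10 q-values per peak from the authors' peak caller. Reads were demultiplexed with bcl2fastq 2.20.0 and peaks called with MACS2, and hg38 and panTro6 are named, per the submitters' processing notes. Aligner, counter and any shift of reads to transposase insertion points: not given in the sources used here. Of 218080 regions in the table, 13823 without a gorilla position (all counts 0) and 8 repeats were dropped. Positions are those of the gorGor6 columns, per the file headers, and the peaks were taken as the same build: they touched 63.4% of regions, against 11.6% after a shift of 50 kb.

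Counts were fitted with edgeR 4.0.16 in R 4.3.3 (TMM scaling, filterByExpr, glmQLFit and glmQLFTest) over all 14 libraries with a term for library series, which leaves 9 residual degrees of freedom. P-values were adjusted by Benjamini-Hochberg over the 200931 regions that passed the filter, with a threshold of 0.05. Every adjusted p in the text is from this main model unless a setting is named. CPM values use TMM-scaled library sizes, and 3 counts, the floor, were worth 0.113 to 0.234 CPM of the unscaled totals. Regions were named by rule: the main promoter of each gene, up to 3 higher and 3 lower distal regions per comparison by smallest p (at most 1 per gene and direction), and the distal region of each receptor class with the smallest p of the joint test. The minor promoter regions of GRIA1, GRIA2 and GABBR2, and the genes named outside the receptor set, were chosen after their values were seen. Members and lists were chosen with earlier results of these data known. The model was tested on simulated data. Alternatives used DESeq2 1.42.0, loess offsets with limma 3.58.1, other filters and distances, single library series, and each library left out. Sequences and motifs were not analysed here.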

Additional observations from a re-analysis of the deposited data

Results flagged for a closer look

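In 9 of the 102 groups of 4 or 5 libraries examined, 1 library lay far from the others of its cell type, beyond Dixon's 95% limit. Chance alone gives about 1 in 20 groups. N replicate 4 was that library in 6 cases. It held 42.7 CPM at the GABRB2 promoter, where the other N libraries held 26.8 to 28.2. It held 21.0 CPM at the GRID1 region at 31383 bp (others 12 to 12.2), 15.0 CPM at the GRM8 region at 2642 bp (others 8.21 to 8.49) and 27.7 CPM at the GABRB1 region at 135205 bp (others 13.7 to 15.6). It held 16.0 CPM at the GRIK5 region at 34041 bp (others 7.54 to 8.68) and 9.90 CPM at the GABBR2 region at 17239 bp (others 4.34 to 5.09). The bIP replicate 5 library was highest at the GRIA2 promoter region at the listed gene position, with 31.6 CPM (others 21.8 to 24.6), and at the GRM6 promoter, with 4.35 CPM (others 2.38 to 2.92). The bIP replicate 4 library was lowest at the GRM2 region at 2935 bp, with 4.42 CPM (others 6.73 to 7.33).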

How the results depend on the processing

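Of the 103 named results that passed, 74 passed in all alternatives run and 29 were lost in at least 1 of them. Of 119 that did not pass, 56 passed in at least 1. With regions of at least 10 CPM, 53 distal receptor regions were left to test. Shares in brackets are of all distal regions called under that filter. Distal calls were 38 for bIP against aRG (76.3%), 36 for bIP against bRG (69.0%) and 37 for N against bIP (74.1%). They were 49 for N against aRG (86.1%), 44 for N against bRG (82.1%) and 50 jointly (94.9%). Promoter calls of bIP against bRG rose to 15, with 35.5% of all promoters called. For that comparison loess offsets gave 14 (31.81% of all promoters called) and the 2 groups alone 17 (31.95% of all). Within the second series, bIP against aRG gave 4 promoter and 85 distal calls. Counting promoters to 3000 bp gave 23 for N against aRG. The 2 groups alone gave 2 distal calls between aRG and bRG, with 0.577% of all distal regions called.

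Leaving out 1 library at a time gave these ranges of promoter and distal calls: 0 to 0 and 0 to 0 for bRG against aRG, 8 to 16 (4 to 12 of them lower) and 124 to 159 for bIP against aRG, 4 (without bRG replicate 1) to 10 and 94 to 146 for bIP against bRG, 14 to 19 and 176 to 200 for N against bIP, 12 to 17 and 216 to 238 for N against aRG, 11 to 18 and 173 to 217 for N against bRG, and 19 to 24 and 248 to 268 jointly. With 1 library left out, 23.79% to 47.96% of all promoter and 39.53% to 50.41% of all distal regions were called for bIP against aRG. These shares were 32.34% to 42.64% and 52.62% to 60.3% for N against bIP. For N against aRG they were 45.42% to 59.93% and 62.47% to 69.53%. With both bRG libraries kept, they were 17.82% to 25.43% and 33.24% to 43.68% for bIP against bRG. With loess offsets the sign changed and the threshold was passed for N against aRG at 4 promoters. These were GABBR1 (0.34, adjusted p = 0.000136), GRID1 (0.40, adjusted p = 0.00143), GRIK1 (0.35, adjusted p = 0.0121) and GRIK4 (0.31, adjusted p = 0.0169). The same held for N against bIP at GRID1 (0.27, adjusted p = 0.00966) and GRIN3A (0.35, adjusted p = 0.0305). The causes were not tested. Requiring peaks with a −log10 q-value of at least 10 left the counts of touched regions as they were, and requiring a peak over 50% of the region gave 23, 23, 26 and 28 promoter and 88, 74, 84 and 95 distal regions from aRG to N.

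Same-numbered libraries correlated at −0.23 to 0.27, and 7 of 16 pairs were over 0.1. The lowest value was for aRG and bIP replicate 3, of different series, and the highest for aRG and bIP replicate 1, of the same series. In that series aRG replicate 1 and bIP replicate 2 also gave 0.27. Because the pairs mix library series, these correlations cannot tell whether replicate numbers pair the samples. Shares in brackets below are of all promoter or all distal regions called with a replicate block. Promoter and distal calls with the block were 14 (37.41%) and 129 (40.83%) for bIP against aRG. They were 11 (24.34%) and 108 (34.49%) for bIP against bRG, and 18 (36.22%) and 193 (55.02%) for N against bIP. For N they were 16 (59.88%) and 226 (66.61%) against aRG, and 14 (44.1%) and 203 (57.69%) against bRG. Between aRG and bRG there was 1 distal call (0.1346%). Under the block GRIK3 changed sign in bIP against bRG (−0.88, adjusted p = 0.00694, so past the threshold) and in N against bRG (−0.070, adjusted p = 0.819).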
